A study of Homo sapiens with 24 samples.

Results

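The LINC RNAs are long intergenic noncoding RNAs, transcripts of the space between coding genes that carry no known protein and are named by number until a function is assigned. They were followed here in HT29, a cell line of human colon adenocarcinoma. All array probes whose gene name starts with LINC and a number were taken, which gave 228 of 50599 probes and 133 of 36337 names. Probes were tested if the scanner software marked them as well above background throughout 1 or more of the groups of 4 arrays. These were 99 probes of 64 names, that is 43.4% of the LINC probes against 55.3% of all probes. Of the 64 names, RefSeq now lists 54 as long noncoding RNA and 6 as protein-coding. Of the other LINC probes, 44 were above background on some array and 85 on none.

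The groups were untreated cells (NT) and cells given 6 h of C3/C2 (propionate at 30 mM with acetate at 15 mM), of SN, the diluted culture supernatant of Propionibacterium freudenreichii ITG P9 grown in DMEM, of TRAIL (100 ng/ml with 2 μg/ml of anti-Flag M2 antibody), or of TRAIL+C3/C2 or TRAIL+SN. Each of the 6 groups had 4 arrays. The methods describe 2 independent experiments, each in duplicate, behind the 4 arrays of a group. The labels do not say which numbers belong together. The p-values therefore measure the spread between these samples, which may be partly technical. Arrays lay on 4 slides. NT and C3/C2 shared slides 1 and 2, SN and TRAIL shared slide 3, and both co-treatments shared slide 4, so that slide and treatment cannot be told apart for SN, TRAIL and the co-treatments against NT. Propionate and acetate are short-chain fatty acids released by bacterial fermentation, and TRAIL is a ligand of death receptors.

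Levels are log2 intensities minus that of the 75th percentile on the same array, and a difference is a difference of such levels. A probe was called at a fold of 2 or more with an adjusted p under 0.05. The 75th percentile of intensity had group medians between 503 (TRAIL+C3/C2) and 883 (NT). All 15 colon epithelium markers were above background on all 24 arrays. Of 10 markers of other cell types, COL3A1 and DCN were above background on no array, and 3 of the 5 that could be tested were higher with C3/C2 and with SN. The summed level of these 10 markers ran from -2.18 to -1.32 in NT, from 0.03 to 0.21 in C3/C2, from 0.12 to 0.35 in SN, from -1.94 to -1.77 in TRAIL, from -0.00 to 0.30 in TRAIL+C3/C2 and from 0.03 to 0.62 in TRAIL+SN. Their part in the results was not tested. In bulk RNA, fewer cells of a type and less RNA per cell cannot be told apart.

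Long noncoding RNAs act in many ways, as guides or decoys for proteins, as hosts of small RNAs, or through the act of transcription next to a gene. LINC00261 is known from definitive endoderm, where it lies beside FOXA2, a transcription factor of the gut, liver and lung. The 60-base probes of the names on which the results turn are given here 5′ to 3′ as in the deposited files, with positions on hg19. They include those names whose probes moved apart, since there the probes match different stretches of the locus. Probe 3 of LINC00087 also matches the LINC00086 probe (chrX:134556222-134556281) at 58 of 60 bases, so that RNA of either locus may have bound it. In the last pair the capitals mark the 26 bases that both probes share.
LINC00261, first probe, chr20:22541381-22541440, minus strand: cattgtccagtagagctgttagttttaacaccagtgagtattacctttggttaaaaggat
LINC00261, second probe, chr20:22544288-22544347, minus strand: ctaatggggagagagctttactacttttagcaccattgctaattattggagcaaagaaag
LINC00087, first probe, chrX:134229057-134229116, minus strand: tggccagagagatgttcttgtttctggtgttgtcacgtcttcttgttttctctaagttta
LINC00087, second probe, chrX:134229158-134229217, minus strand: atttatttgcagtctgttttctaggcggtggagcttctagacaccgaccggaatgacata
LINC00087, probe 3, chrX:134232439-134232498, minus strand: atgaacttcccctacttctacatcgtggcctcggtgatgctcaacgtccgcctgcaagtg
LINC00319, chr21:44873218-44873277, plus strand: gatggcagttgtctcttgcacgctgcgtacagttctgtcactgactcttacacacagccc
LINC00310, first probe, chr21:35555185-35555244, plus strand: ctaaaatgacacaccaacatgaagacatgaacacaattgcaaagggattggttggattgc
LINC00310, second probe, chr21:35555366-35555425, plus strand: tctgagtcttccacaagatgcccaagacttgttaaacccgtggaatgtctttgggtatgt
LINC00222, chr6:109080638-109080697, plus strand: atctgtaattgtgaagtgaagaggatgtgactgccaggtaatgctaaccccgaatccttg
LINC00240, first probe, chr6:26924913-26936246, plus strand: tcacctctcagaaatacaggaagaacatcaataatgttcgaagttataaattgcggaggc
LINC00240, second probe, chr6:26991660-26991719, plus strand: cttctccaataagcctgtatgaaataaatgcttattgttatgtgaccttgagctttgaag
LINC00476, first probe, chr9:98637477-98637536, minus strand: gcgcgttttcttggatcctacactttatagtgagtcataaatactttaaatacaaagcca
LINC00476, second probe, chr9:98637827-98637886, minus strand: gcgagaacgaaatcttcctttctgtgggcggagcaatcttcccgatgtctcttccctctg
LINC00265, second probe, chr7:39773365-39773424, plus strand: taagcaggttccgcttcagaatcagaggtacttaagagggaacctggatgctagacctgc
LINC00265, seventh probe, chr7:39834139-39834198, plus strand: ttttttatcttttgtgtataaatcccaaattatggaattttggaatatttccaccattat
LINC00338, first probe, chr17:75090409-75090468, plus strand: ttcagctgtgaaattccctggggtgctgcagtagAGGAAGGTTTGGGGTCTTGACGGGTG
LINC00338, second probe, chr17:75090443-75090502, plus strand: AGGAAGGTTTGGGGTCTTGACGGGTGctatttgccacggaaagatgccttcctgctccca

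LINC00261 was lower in each treatment that contained SN or C3/C2, and its difference with TRAIL alone did not pass the test. The gene was singled out with this fall known, so that its values are given as a description. Its first probe, above background on all 24 arrays, had levels of 0.03, 0.00, 1.28 and 1.11 in NT and of -0.49, -0.44, 0.73 and 0.58 in TRAIL. The levels were -3.64, -3.93, -3.48 and -3.30 with C3/C2, -3.91, -3.71, -2.81 and -3.21 with SN, -3.95, -3.79, -2.66 and -2.92 with TRAIL+C3/C2 and -3.94, -4.00, -2.68 and -2.81 with TRAIL+SN. None of these 16 arrays overlapped with the NT or TRAIL arrays. In all 6 groups the replicates numbered 1 and 2 lay below those numbered 3 and 4, a split that the fit, without the replicate number, counts as spread.

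The difference of the first LINC00261 probe from NT was -4.19 (SE 0.40, 18.3-fold lower) with C3/C2, -4.01 (SE 0.40, 16.2-fold lower) with SN, -3.93 (SE 0.40) with TRAIL+C3/C2 and -3.96 (SE 0.40) with TRAIL+SN, with n = 4 arrays in each group. With TRAIL it was -0.51 (SE 0.40). On the slide that SN and TRAIL shared, SN was lower than TRAIL by a difference of -3.51 (SE 0.40). C3/C2 was lower than NT by -3.66 on slide 1, with 1 array of each, and by -4.37 on slide 2. SN differed from C3/C2 by 0.18 (SE 0.40) and TRAIL+SN from TRAIL+C3/C2 by -0.03 (SE 0.40). The departure of the co-treatments from the sum of the single treatments was 0.77 (SE 0.56) for C3/C2 and 0.56 (SE 0.56) for SN.

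The second LINC00261 probe, 2907 bases upstream on the minus strand, moved the same way. It was well above background on all NT and TRAIL arrays and on no array of C3/C2, SN or the co-treatments. Its levels were -3.58, -3.72, -2.33 and -2.51 in NT and -3.91, -3.93, -2.67 and -2.88 in TRAIL. Because the level in the other groups was not well above background, its fall is a lower bound, set against the dimmest signal that the software still marked as measured on an array. It was at least 6.44-fold lower with C3/C2, 5.39-fold lower with SN, 3.98-fold lower with TRAIL+C3/C2 and 4.13-fold lower with TRAIL+SN. Under normexp correction its differences in the co-treatments were -0.63 (TRAIL+C3/C2) and -0.68 (TRAIL+SN), short of the fold.

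FOXA2, whose probe lies 17.9 kb from the nearer LINC00261 probe on the same strand, moved less. Its levels were 2.17, 2.16, 2.71 and 2.78 in NT, from 1.39 upwards with C3/C2, where all lay below the lowest SN array, and 1.92, 1.75, 2.26 and 2.03 with SN. The arrays of C3/C2, TRAIL+C3/C2 (up to 1.86) and TRAIL+SN (up to 2.10) lay below all NT arrays, while the SN arrays overlapped with them. FOXA2 fell with C3/C2 by a difference of -1.01 (SE 0.15, adjusted p = 3.5e-06, limma). It was lower short of the fold with SN (-0.46), TRAIL+C3/C2 (-0.64) and TRAIL+SN (-0.57), with SE 0.15 for each. Their adjusted p was 0.0082, 0.00055 and 0.0016 (limma). With TRAIL the difference was -0.16 (SE 0.15, adjusted p = 0.45, limma). The call with C3/C2 lay at the threshold and was lost when C3/C2 replicate 1 (-0.99) or either of NT replicates 3 (-0.92) and 4 (-0.90) was left out, a check added after seeing the data. The plot of LINC00261 and FOXA2 levels by array shows these values side by side.

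**Figure D1:**
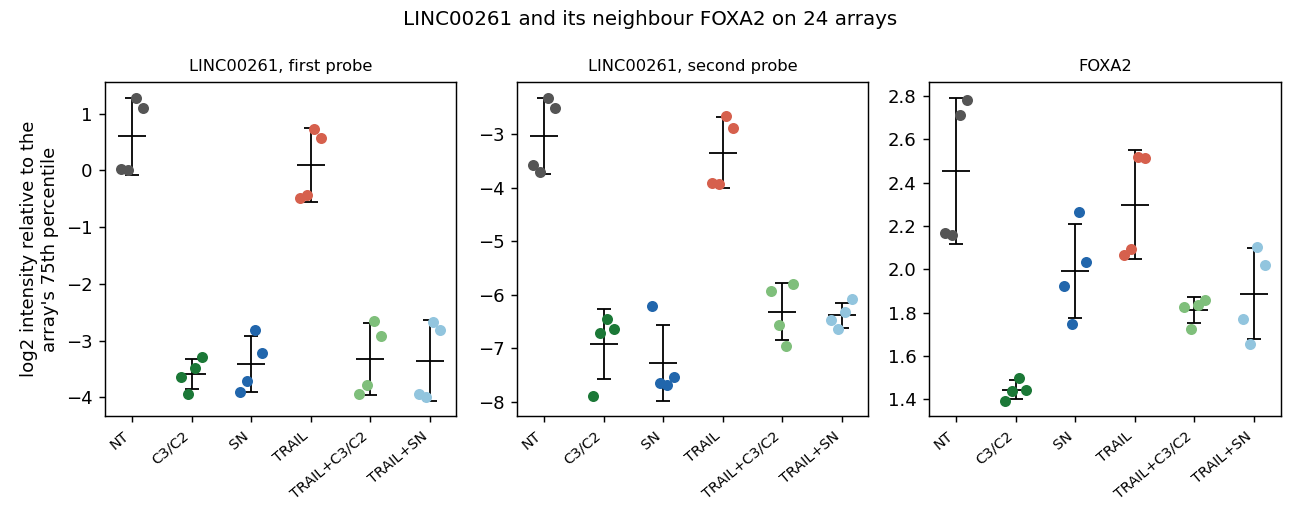
Level on the log2 scale, with the 75th percentile of each array at 0 (vertical axis) of both LINC00261 probes and of FOXA2 in each of the 6 groups, with 1 point per array, the mean as a bar and the SD as whiskers. The first LINC00261 probe lies at or above -0.49 in NT and TRAIL and at or below -2.66 in the other 4 groups, while FOXA2 spans a much narrower range, from 1.39 to 2.78.

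The named probes whose level followed that of the first LINC00261 probe most closely over the 24 arrays were those of FAM21C (Pearson r = 0.982), TRIP12 (r = 0.980), ADNP (r = 0.979), ING3 (r = 0.978) and STX19 (r = 0.978). This is a description, since the 24 points share their groups and slides. STX19, a syntaxin of membrane fusion, had a mean level of -0.04 in NT, -0.06 in TRAIL and -3.76 with C3/C2. ADNP, a homeobox protein of chromatin, had 2.93 in NT, 2.91 in TRAIL and 1.45 with C3/C2.

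Across the LINC probes, treatments that contained SN or C3/C2 changed many members and TRAIL alone almost none. With C3/C2, 19 of 99 probes (13 names) were higher, where 13.3% of all probes tested were higher, and 10 (6 names) were lower, where 6.22% of all were. With SN, 14 probes were higher (14.1% of all) and 13 lower (9.69% of all). With TRAIL+C3/C2, 22 were higher (16.4% of all) and 11 lower (8.12% of all), and with TRAIL+SN 18 were higher (16.1% of all) and 13 lower (10.2% of all). With TRAIL, 1 probe was higher (0.723% of all) and 0 lower (2.11% of all) by limma, and without adjustment of p the counts at this fold were the same. At an adjusted p under 0.05 and any fold, TRAIL had 11 LINC probes higher and 10 lower. The share of all probes was not taken at any fold, so these counts cannot be set against the array. With SN, at a fold of 2, the share of LINC probes called higher was that of all probes.

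**Figure D2:**
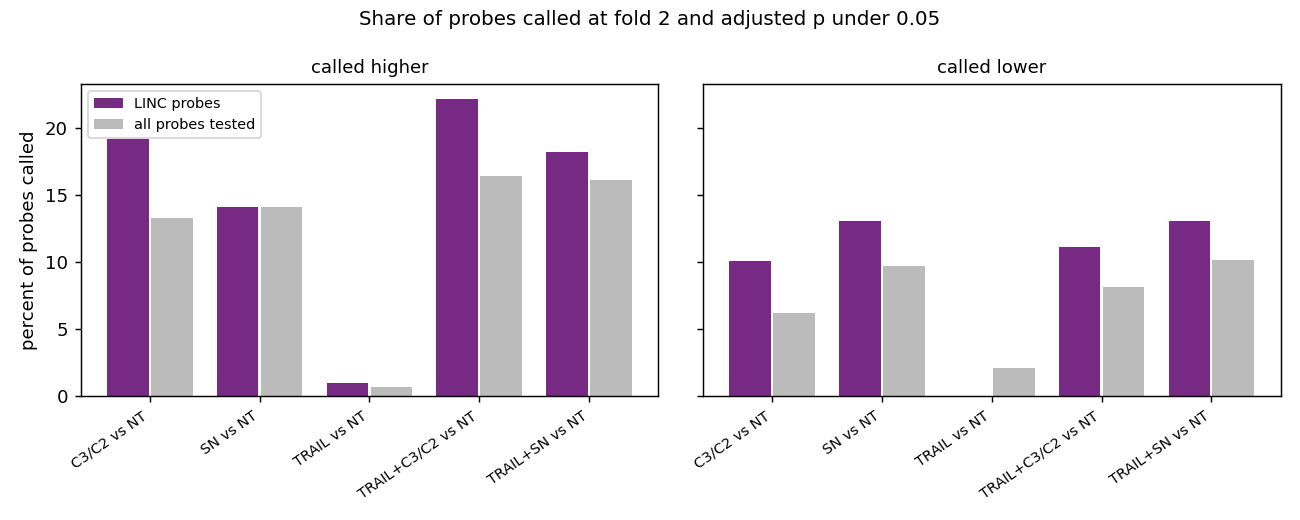
Percent of probes called higher (left) and lower (right) in each treatment against NT, at a fold of 2 and an adjusted p under 0.05, for the LINC probes and for all probes tested. LINC bars stand at 19.2% higher and 10.1% lower with C3/C2 against 13.3% and 6.22% of all probes, and at 1.01% higher and 0% lower with TRAIL.

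The median difference of the 99 LINC probes was 0.24 with C3/C2 (0.07 over all probes), -0.04 with SN (-0.01) and 0.01 with TRAIL (0.04). In the co-treatments it was 0.10 for TRAIL+SN (0.05) and 0.19 for TRAIL+C3/C2 (0.10). Of the 62 LINC probes above background on all 24 arrays, 3 were higher with C3/C2 and 7 lower, against 9.9% and 5.41% of all such probes, and 3 were higher with SN and 10 lower, against 11.6% and 8.04%. Among the 37 others, which the filter admitted through fewer groups, 16 were higher with C3/C2 and 3 lower, against 28.2% and 9.78% of all such probes. A probe that leaves or reaches background falls among these by its change, so the split is no test. LINC probes had a median level of -3.03 in NT and all tested probes one of -1.13.

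The balance of rises and falls among the LINC probes depended on the scaling. Shares of all probes called were not taken under these alternatives, so the counts do not set LINC probes apart from the array. When arrays were scaled on their median instead, the median of all probes shifted from 0.07 to -0.23 with C3/C2, and the LINC calls became 12 higher and 15 lower with C3/C2 and 15 higher and 17 lower with TRAIL+C3/C2. Quantile normalization gave 13 higher and 11 lower with C3/C2 and 17 higher and 14 lower with TRAIL+C3/C2. Scaling on spike-in RNAs moved the median of all probes to -0.48 for TRAIL+SN and -0.57 for TRAIL+C3/C2, and gave 11 higher and 26 lower with TRAIL+C3/C2 and 11 higher and 28 lower with TRAIL+SN. Normexp background correction, whose offset draws dim probes towards each other, left 6 LINC probes higher with C3/C2 and 5 with SN.

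Some of the 99 LINC probes were called the same way in all of the 4 treatments with SN or C3/C2. Higher in all 4 were 10 probes of 8 names, a share near that of all probes tested (9.64%). Their names were LINC00319, LINC00087, LINC00051, LINC00312, LINC00163, LINC00202, LINC00482 and LINC00483. Lower in all 4 were 8 probes of 5 names (3.65% of all), namely LINC00261, LINC00476, LINC00240, LINC00338 and LINC00239. The fall of LINC00240 was at its second probe, with no array of these 4 treatments well above background. It was at least 1.43-fold with C3/C2 and 1.19-fold with SN, below the fold of 2, and had no bound in the co-treatments. Under normexp correction the LINC00240 difference was -0.27 with C3/C2 and -0.22 with SN, and it turned in the co-treatments. In all, 43 probes of 28 names were called in at least 1 treatment, where 34.9% of all probes were, and 56 in none. The 4 comparisons share the NT arrays. Against TRAIL, on the slide that both shared, SN had 16 LINC probes higher (12.9% of all) and 11 lower (8.05% of all).

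**Figure D3:**
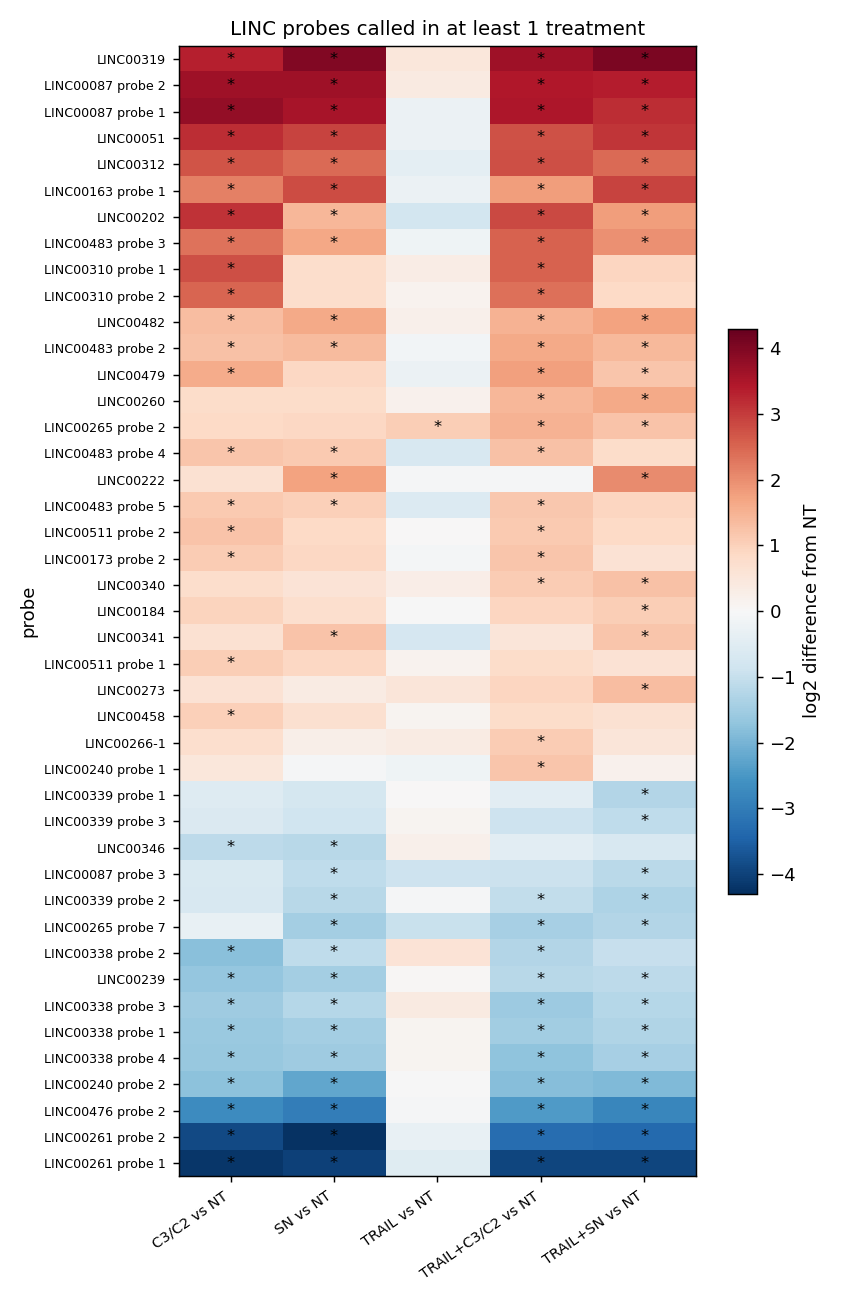
Differences from NT on the log2 scale (colour) of the 43 LINC probes called in at least 1 of the 5 treatments (columns), 1 row per probe, ordered by their mean over the 4 treatments with SN or C3/C2, with an asterisk where a probe was called. The TRAIL column holds 1 asterisk, at the second LINC00265 probe. LINC00319 stands at the top and LINC00261, at -4.19 with C3/C2, at the bottom. Where NT or the treatment was not well above background the colour is a fitted value and not a bound.

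Several of the largest rises were at probes that no NT array measured well above background. LINC00319, on chromosome 21, had levels of -6.66, -6.42, -6.09 and -6.38 in NT, all not well above background, and of -3.05, -2.95, -3.00 and -3.23 with C3/C2 and -2.40, -2.37, -2.52 and -2.41 with SN. With TRAIL its levels were -5.87, -6.18, -5.75 and -5.75, also not well above background. It was at least 6.27-fold higher with C3/C2, 9.73-fold with SN, 7.72-fold in TRAIL+C3/C2 and 10.4-fold in TRAIL+SN (adjusted p = 2.1e-14, 9.71e-16, 3.98e-15 and 5.64e-16, limma). All arrays of these 4 groups lay above all NT and TRAIL arrays. The probe passed the filter through the groups where it was high, and the p-values set them against signals that were not well above background, which holds for the first LINC00087 probe and LINC00222 too. SIK1, a salt-inducible kinase 38.5 kb away on the other strand, was its nearest named neighbour and rose with SN by a difference of 1.12 and with TRAIL+SN by 1.39.

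The first probe of LINC00087, on chromosome X, had levels of -6.17, -6.54, -6.54 and -6.64 in NT, not well above background, and of -2.54, -2.48, -3.00 and -2.82 with C3/C2 and -2.78, -2.55, -3.20 and -3.13 with SN. It was at least 7.98-fold higher with C3/C2 and 6.91-fold with SN (adjusted p = 6.67e-11 and 1.33e-10, limma). The second probe, 101 bases along, was at least 3.05-fold higher with C3/C2 and 3.07-fold with SN. Under normexp correction its differences were 0.80 with C3/C2 and 0.98 with SN, short of the fold. Probe 3, 3281 bases from the second and nearly identical to the LINC00086 probe, moved the other way. Its levels were -1.48, -1.48, -1.27 and -1.04 in NT, -2.33, -2.57, -2.41 and -2.37 with SN and -2.18, -2.29, -1.99 and -2.40 with TRAIL. It fell with SN by a difference of -1.10 (SE 0.11, adjusted p = 1.77e-08, limma) and with TRAIL+SN by -1.16 (SE 0.11). The LINC00086 probe itself was not called in any treatment, with differences of 0.24 with SN and 0.10 with TRAIL+SN. Which RNA probe 3 bound was not tested.

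LINC00051, on chromosome 8, was at least 2.75-fold higher with C3/C2 and 2.30-fold with SN, with no NT array well above background. Under normexp correction its difference was 0.78 with C3/C2 and 0.78 with SN, short of the fold. LINC00312, near the gene of the LIM-domain protein LMCD1, was measured on all NT arrays. Its levels ran from -5.22 to -4.40 in NT, from -2.39 to -1.64 with C3/C2, from -2.40 to -2.15 with SN and from -5.60 to -4.68 in TRAIL. The rise was 2.69 with C3/C2 (SE 0.19, adjusted p = 8.08e-11, limma) and 2.44 with SN (SE 0.19, adjusted p = 3.16e-10). LMCD1 itself, 5.63 kb away on the same strand, rose by 1.86 with C3/C2 and 2.44 with SN.

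The first probe of LINC00163 had 1 NT array above background and rose by 2.17 with C3/C2 (SE 0.26), by 2.79 with SN, by 1.81 in TRAIL+C3/C2 and 2.91 in TRAIL+SN, while its second probe did not pass (0.30 with C3/C2 and 0.39 with SN). Under normexp correction the difference of the first probe with SN was 0.95, short of the fold. LINC00482 was above background on all 24 arrays. Its levels ran from -0.52 to -0.30 in NT, from 0.69 to 1.14 with C3/C2, from 0.93 to 1.38 with SN and from -0.36 to 0.03 in TRAIL, and it rose by 1.32 with C3/C2 and 1.63 with SN (SE 0.14 for each). LINC00483, which RefSeq now lists as the protein-coding gene ANKRD40CL, had 5 tested probes, 4 of which were higher with C3/C2 and with SN.

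The falls other than LINC00261 included a snoRNA host and an antisense RNA. All 4 probes of LINC00338, now named SNHG20 as a host gene of small nucleolar RNA, fell with C3/C2, by differences from -1.78 to -1.54, and with SN, from -1.52 to -1.09. The first pair of them overlap by 26 bases, as shown above, and are no independent readings. The last of them had levels of 0.26, 0.40, 0.27 and 0.14 in NT, -1.38, -1.25, -1.44 and -1.32 with C3/C2, -1.10, -1.22, -1.39 and -1.31 with SN and 0.43, 0.46, 0.27 and 0.38 in TRAIL. It fell by -1.61 with C3/C2 and -1.52 with SN (SE 0.08, adjusted p = 6.64e-13 and 1.33e-12, limma), and the groups did not overlap with NT.

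LINC00476, now named ERCC6L2-AS1 as the antisense RNA of a DNA repair helicase gene, was called at the second of its probes. That probe had levels of -2.17, -2.57, -2.64 and -2.55 in NT and of -4.85, -5.12, -5.33 and -5.40 with C3/C2, a difference of -2.69 (SE 0.21, adjusted p = 5.34e-10, limma). With SN no array was well above background and the fall was at least 7.63-fold. Under normexp correction the differences of this probe in the co-treatments were -0.70 (TRAIL+C3/C2) and -0.83 (TRAIL+SN), short of the fold. The first probe, 350 bases away, ran from 0.14 to 0.26 in NT and from 0.00 to 0.22 with C3/C2, groups that overlapped, and from -0.69 to -0.39 with SN, below all NT arrays. Its differences of -0.71 with SN and -0.94 with TRAIL+SN had adjusted p of 4.63e-09 and 4.4e-11 (limma) and did not reach the fold. LINC00239 fell by -1.66 with C3/C2 and -1.47 with SN (SE 0.12 for each), and was above background on all arrays. LINC00339 fell with SN (-1.20, SE 0.10) and TRAIL+SN (-1.32, SE 0.10) at its second probe, and also with TRAIL+C3/C2 (-1.07, SE 0.10), and its value with C3/C2 was -0.69. Under normexp correction the LINC00339 difference with TRAIL+SN was -0.80, short of the fold.

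For 20 names more than 1 probe was tested. With C3/C2, all probes were called the same way for 4 names, some of them for 6 and none for 10. No name had probes called in opposite directions with C3/C2 or TRAIL, while 1 did with SN (LINC00087) and 2 did with each co-treatment, LINC00240 and LINC00265 with TRAIL+C3/C2 and LINC00087 and LINC00265 with TRAIL+SN. The first probe of LINC00240, which spans a splice junction, had levels from -2.94 to -2.57 in NT and from -1.67 to -1.32 with TRAIL+C3/C2, and rose by 1.18 (SE 0.13, adjusted p = 5.18e-08, limma). Its second probe was lower with TRAIL+C3/C2 by -1.85, with 4 NT arrays and no treated array well above background. That fall had no bound above 1, and under normexp correction its direction turned (0.18 with TRAIL+SN and 0.29 with TRAIL+C3/C2).

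LINC00265 had 7 tested probes on chromosome 7. Its second probe was the only LINC probe called with TRAIL alone. It had levels of -6.70, -5.79, -5.56 and -6.52 in NT, with 1 array well above background, and of -5.14, -5.04, -4.87 and -5.24 in TRAIL, a difference of 1.07 (SE 0.25, adjusted p = 0.00293, limma). Without NT replicate 1 the difference was 0.89 and without NT replicate 4 it was 0.95, and either ended the call, as did spike-in scaling (0.81) and normexp correction (0.53). Its seventh probe had -0.53, 0.09, 0.03 and 0.14 in NT, -1.45, -1.43, -1.76 and -1.49 with SN, -0.99, -1.15, -1.20 and -0.82 with TRAIL and -1.24, -1.22, -1.54 and -1.30 with TRAIL+SN. It fell by -1.46 with SN (SE 0.15, adjusted p = 2.78e-08, limma), and its value with TRAIL was -0.97 (SE 0.15). The fall with TRAIL+SN, -1.26, was smaller than the sum of both, by 1.18 (SE 0.22, adjusted p = 0.000656, limma).

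**Figure D4:**
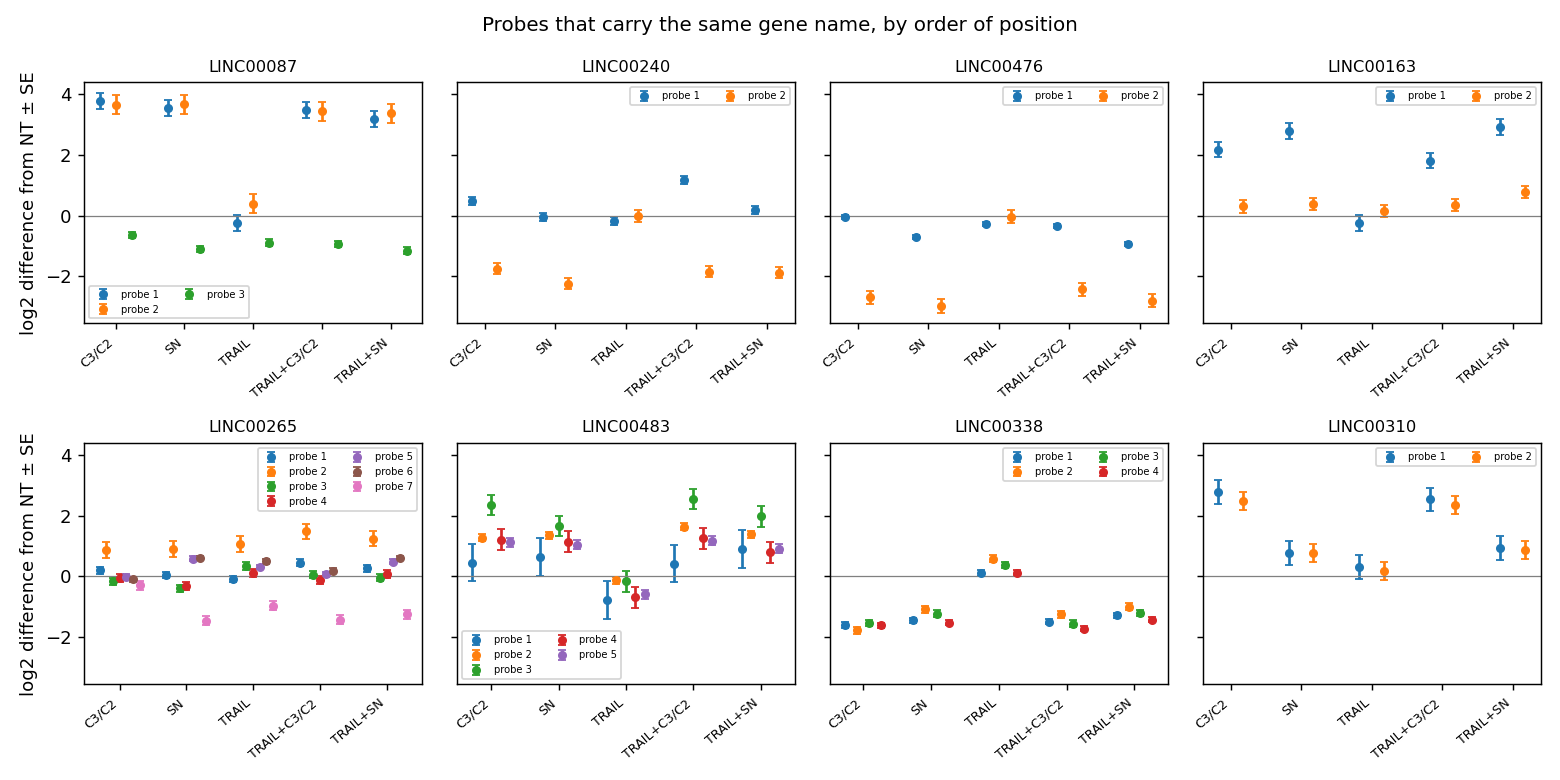
Differences from NT on the log2 scale with their standard error (vertical axis) in the 5 treatments (horizontal axis) for the probes of 8 names, numbered by position on the chromosome. The probes of LINC00338 and LINC00310 move together, those of LINC00087, LINC00240 and LINC00476 do not, and of the 7 LINC00265 probes only the second and the seventh pass the threshold.

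That seventh LINC00265 probe was the only LINC probe called for the interaction of TRAIL and SN (2.6% of all probes lay above the sum and 0.379% below it), and with spike-in scaling its value of 0.88 fell short of the fold. For the interaction of TRAIL and C3/C2, 0 LINC probes were called by limma (0.458% of all above the sum and 0.15% below it), with adjusted or unadjusted p at the fold of 2.

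The supernatant and the acid mixture were compared directly, since C3/C2 holds the main acids of SN at the amounts in the diluted supernatant. SN was higher than C3/C2 at 2 LINC probes (1.21% of all) and lower at 6 (4.28% of all). TRAIL+SN was higher than TRAIL+C3/C2 at 2 (0.984% of all) and lower at 5 (2.5% of all). SN and C3/C2 lay on separate slides, and both co-treatments on the same one.

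LINC00310, on chromosome 21, had the largest difference between SN and C3/C2. Its second probe was above background on all arrays, with levels of -4.81, -4.60, -4.22 and -4.02 in NT, -2.17, -1.84, -1.81 and -1.85 with C3/C2 and -4.00, -3.66, -3.74 and -3.20 with SN. With TRAIL+C3/C2 they were -2.39, -2.11, -1.84 and -1.88, and with TRAIL+SN -4.31, -2.91, -3.33 and -3.65. Arrays with C3/C2 thus lay above all arrays with SN, with or without TRAIL. The probe rose by 2.49 with C3/C2 (SE 0.30, adjusted p = 2.27e-07, limma), its value with SN was 0.76 (SE 0.30), and SN was lower than C3/C2 by -1.73 (SE 0.30, adjusted p = 7.51e-05). TRAIL+SN was lower than TRAIL+C3/C2 by -1.49 (SE 0.30, adjusted p = 0.000458). The first probe gave -2.01 and -1.61 for the same comparisons. Under normexp correction the values between the co-treatments were -0.45 at the first probe and -0.73 at the second, short of the fold. So was the value of the first probe for SN against C3/C2 (-0.71).

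LINC00202, now named FAM238C, was also lower with SN than with C3/C2, by -1.68 (SE 0.42, adjusted p = 0.00249, limma). It ran from -5.23 to -4.33 with SN and from -3.36 to -2.83 with C3/C2, and normexp correction (-0.62) ended the call. LINC00324 was lower with TRAIL+SN than with TRAIL+C3/C2 by -1.49 (SE 0.25, adjusted p = 9e-05, limma), with levels from -5.57 to -4.74 and from -4.04 to -3.09, and by -0.48 under normexp correction, which ended the call. LINC00222, on chromosome 6, went the other way. It was above background on all 4 arrays of SN and on 3 of TRAIL+SN, and on no array of any other group. Its levels were -5.03, -5.36, -5.28 and -4.46 with SN, -4.06, -4.60, -5.52 and -4.67 with TRAIL+SN and -7.20, -6.62, -6.80 and -6.38 in NT. It was at least 1.61-fold higher with SN than with C3/C2 and at least 1.24-fold higher with TRAIL+SN than with TRAIL+C3/C2 (adjusted p = 0.0152 and 6.23e-05, limma). The first of these calls was lost without C3/C2 replicate 1 or SN replicate 4. Under normexp correction the LINC00222 differences were 0.38 and 0.33, short of the fold. LINC00162, now named PICSAR, was higher with SN than with C3/C2 at 1 of its 2 probes by 1.01 (SE 0.21). That call ended when any of 5 arrays was left out, and also under normexp correction (0.81).

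**Figure D5:**
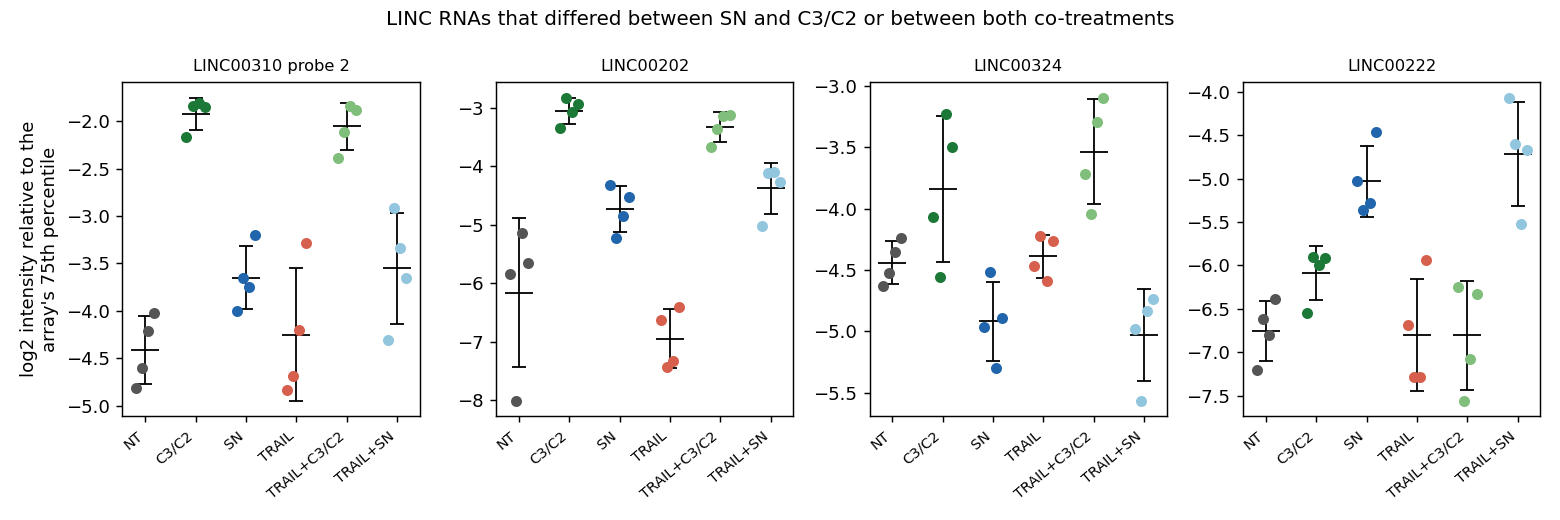
Level on the log2 scale, with the 75th percentile of each array at 0 (vertical axis) of 4 LINC probes in the 6 groups, with 1 point per array, the mean as a bar and the SD as whiskers. LINC00310 lies at or above -2.39 on all arrays with C3/C2 and at or below -2.91 on all others, and LINC00222 is highest on the arrays with SN, from -5.52 to -4.06.

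Genes next to the LINC probes were read in the same way. For 78 LINC probes a named gene that is not LINC was tested within 100 kb. Of the 26 of these LINC probes called with C3/C2, 4 had a neighbour called the same way (15.4%), against 17.2% of the called probes of all other named genes. Among the 4 were both LINC00261 probes, paired with the same FOXA2 probe, so that this locus counts more than once. That FOXA2 call lay at the threshold, as given above. With SN it was 2 of 25 (8%, against 19.7%). RIPK4, a kinase of epidermal differentiation 26.6 kb from LINC00479, rose by 1.68 with C3/C2 against 1.61 for LINC00479. That LINC00479 value was 0.22 on slide 1, with 1 array of each group, and 2.07 on slide 2. With SN, RIPK4 rose by 1.71 and LINC00479 did not reach the fold (0.90), while in the co-treatments both were called higher. LINC00112, 23.0 kb from RIPK4, was not called in any treatment (0.30 with C3/C2). ANKRD26, 74.0 kb from LINC00202, fell by -1.19 with SN where LINC00202 was higher by 1.43.

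Long noncoding RNAs with names of another kind served for comparison, as a list of 62 names of which 44 were on the array and 41 could be tested. Shares of all probes tested on the array are given in brackets. With C3/C2, 6 were higher (13.3%) and 4 lower (6.22%), and with SN 8 (14.1%) and 5 (9.69%). With TRAIL, 1 was higher (0.723%) and 1 lower (2.11%). In TRAIL+C3/C2, 11 were higher (16.4%) and 3 lower (8.12%), and in TRAIL+SN 12 (16.1%) and 4 (10.2%). KCNQ1OT1, the antisense RNA of an imprinted domain, rose by 3.55 with C3/C2 (SE 0.25) and 3.27 with SN. HOTAIR and HOTTIP, which lie in the HOXC and HOXA clusters, fell by -1.70 (SE 0.08) and -2.29 (SE 0.13) with C3/C2 and further than a fold of 2 with SN as well. MIR17HG, host of the miR-17 cluster, fell by -2.41 (SE 0.18) with C3/C2 and -3.18 with SN, while its value with TRAIL+C3/C2 was -0.70.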

How the data were processed

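RNA of 24 HT29 cultures was labelled with Cy3 by the authors and hybridised to 1-colour Agilent 8x60K arrays. The deposited spot intensity came from Agilent Feature Extraction 10.7.3.1, with background and spatial trend subtracted and no normalization between arrays. The deposited table of intensities equals this intensity divided by the array median, and its 24 columns of flags per sample were not used. Control spots and outlier spots (190 to 315 per array) were left out, and no spot was saturated. Levels were log2(intensity) minus the 75th percentile of the array, with spots of a probe averaged. Positions are on hg19 as in the files. Of the LINC names, 95 matched the current RefSeq symbol, 34 have another symbol and 4 were not matched.

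The 6 groups entered 1 linear model in limma 3.58.1 under R 4.3.3 (18 residual degrees of freedom), and p was adjusted over 27957 probes. The fit was tested on simulated data. Replicates numbered alike were not used as pairs. A fold against a group with no array well above background is a bound. The number of arrays limits precision, and the median SE was 0.16. Genes named are LINC00261, the 6 largest rises and falls per treatment among probes called with no overlap with NT, the 3 largest of the other comparisons, names with probes called in opposite directions, neighbours within 100 kb, the 5 probes most like LINC00261, and a list of other long noncoding RNAs. The members of each list were chosen with earlier results of these data known. LINC00482, LINC00483 and LINC00479 were named after their values were seen. Figures were drawn with matplotlib 3.10.9.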

Additional observations from a re-analysis of the deposited data

Results flagged for a closer look

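Gaps within a group of 4 arrays were examined for 23 named probes, and 7 of 138 groups held an array that stood apart from the others, where chance gives about 1 in 20. LINC00310 in NT replicate 1 was at -7.28 at its first probe, with the other NT arrays at up to -5.74, and at -2.17 in C3/C2 replicate 1 at its second probe, with the others from -1.85 to -1.81. The second LINC00261 probe was at -6.21 in SN replicate 1, with the others from -7.69 to -7.55, all not well above background. LINC00163 was at -3.19 in TRAIL+SN replicate 1, with the others from -3.71 to -3.67, and LINC00222 at -6.55 in C3/C2 replicate 1, with the others from -5.99 to -5.90. The seventh LINC00265 probe was at -0.53 in NT replicate 1 (others 0.03 to 0.14) and at -1.76 in SN replicate 3 (others -1.49 to -1.43).

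The effect of SN on the seventh LINC00265 probe differed between cells with and without TRAIL by 1.18 on the log2 scale (adjusted p = 0.000656, limma, interaction of TRAIL and SN).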

How the results depend on the processing

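The first LINC00261 probe kept its direction under each alternative, and leaving out 1 array at a time gave differences from -4.39 to -3.97 with C3/C2 and from -4.21 to -3.79 with SN. Over all counts and LINC00261 values, 218 results under alternatives stayed within 1.5 times the reported value or on their side of the threshold and 60 moved. With the array median, 12 LINC probes were higher with C3/C2, 17 lower with TRAIL+C3/C2, 3 lower with SN than with C3/C2 and 3 lower with TRAIL+SN than with TRAIL+C3/C2. With spike-in scaling, 0 were higher and 2 lower with TRAIL, 11 and 26 in TRAIL+C3/C2, 11 and 28 in TRAIL+SN, 3 lower with SN than with C3/C2, 3 lower with TRAIL+SN than with TRAIL+C3/C2, and 0 were called for the interaction of TRAIL and SN. With normexp, 6 were higher with C3/C2, 5 higher and 8 lower with SN, 0 higher with TRAIL, 12 and 6 in TRAIL+C3/C2, 11 and 4 in TRAIL+SN, 0 and 1 for SN against C3/C2, and 0 and 0 for TRAIL+SN against TRAIL+C3/C2. There the second LINC00240 probe turned to 0.18 (TRAIL+SN) and 0.29 (TRAIL+C3/C2). With no filter on dim probes, 1 was lower with TRAIL, 38 higher with TRAIL+C3/C2 and 28 higher with TRAIL+SN. With a filter at 2 of 4 arrays, 1 was lower with TRAIL and 1 was called for the interaction of TRAIL and C3/C2.

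With 1 probe per gene, which leaves fewer probes, C3/C2 had 10 higher and 4 lower, 8 and 5 with SN, 0 higher with TRAIL, 13 and 3 with TRAIL+C3/C2, 5 lower with TRAIL+SN, 1 and 3 for TRAIL+SN against TRAIL+C3/C2, and 0 for the interaction of TRAIL and SN. With no minimum fold, 35 and 24 were called with C3/C2, 31 and 36 with SN, 11 and 10 with TRAIL, 40 and 29 in TRAIL+C3/C2, 38 and 32 in TRAIL+SN, 12 and 22 for SN against C3/C2, 9 and 9 for TRAIL+SN against TRAIL+C3/C2, 3 for the interaction with C3/C2 and 12 for that with SN. Without slide 1, an alternative chosen after seeing the data, TRAIL had 0 and 1, and 1 was higher with SN than with C3/C2. Leaving out 1 array at a time gave 0 to 1 higher and 0 to 1 lower with TRAIL, 0 to 2 higher with SN than with C3/C2, 1 to 2 higher with TRAIL+SN than with TRAIL+C3/C2, and 1 to 2 for the interaction of TRAIL and SN. Apart from the smaller or larger sets of probes, the cause of these moves was not tested. Shares of all probes called were not taken under the alternatives, so the counts do not set LINC probes apart from the array.

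Replicate numbers were not used as pairs, since the labels do not say which belong together. The deviations of arrays with the same number correlated by 0.052 to 0.448 over 60 pairs (median 0.195). Those of arrays with other numbers correlated by -0.321 to 0.233 (median -0.114). Of the 24 arrays, 23 correlated best with an array of their own number. With the replicate number as a block, C3/C2 had 19 LINC probes higher and 10 lower, and 6 were lower with TRAIL+SN than with TRAIL+C3/C2, and no count moved by over 1.5 times. Slide as a fixed block was not run between the co-treatments, which share a slide. Dim signal limits the LINC results, since 9 tested LINC probes had no NT array well above background.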
